A study of Homo sapiens with 6 samples.

Results

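The genes described here encode 54 proteins of the splicing machinery, chosen by name from 60604 genes in the count files. They are 13 SR proteins and their close relatives, 17 heterogeneous nuclear ribonucleoproteins (hnRNPs), 6 kinases of SR proteins (the CLK and SRPK families), 16 proteins of the core spliceosome and its small nuclear ribonucleoproteins (snRNPs), and the factors RBM39 and LUC7L3. The rule names genes and uses no measured value, but it was written with earlier results of these data known, so the shares below are descriptions. The study sequenced total RNA of AGS, a cell line established from a human adenocarcinoma of the stomach, and its title concerns the mitochondrial deacetylase SIRT3 and non-steroidal anti-inflammatory drugs. Indomethacin, a drug of that class that inhibits cyclooxygenases, was given at 0.5 mM for 24 h in 3 samples, and 3 control samples are labelled 0 mM, with no time and no vehicle named. All 6 samples are of the same line, and the labels name no allele, transgene or second agent. Nothing in the labels says that replicates were separate cultures, so p-values here reflect how much these 6 samples vary, and that variation may be technical.

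Splicing removes introns from precursor RNA, and the spliceosome that does so is built anew on each intron. The U1 snRNP binds the 5′ splice site, the U2 snRNP with U2AF binds the branch point and the 3′ splice site, and the U4/U6.U5 tri-snRNP then joins and supplies the catalytic core. SR proteins carry domains rich in arginine and serine and mostly promote the use of nearby exons, whereas many hnRNPs repress them. CLK kinases phosphorylate SR proteins in the nucleus, and SRPK kinases do so mainly in the cytoplasm, which allows import of SR proteins into the nucleus. Many genes of SR proteins and hnRNPs also limit their own output through exons that direct the transcript to nonsense-mediated decay.

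Promoter sequences from RefSeq (GRCh38.p14) were available for 47 of the 54 genes, as the 250 bases before the annotated start. That start can differ from the start of the gene in the count files. The window of SNRPE, chr1:203861597-203861846, lies almost wholly inside its gene, which starts at 203861599 in the count files. Other windows lie wholly within the bounds of their genes there. These are SRSF5, SRSF10, SRSF11, HNRNPA2B1, HNRNPD, HNRNPF, HNRNPH3, PTBP1, CLK2, CLK3, CLK4, SRPK2, PRPF31, SNRPA, U2AF2 and SNRNP200. The motif shares below include such windows, which are not upstream of the genes as counted. One promoter is shown for each of the 4 larger classes, taken from a gene whose transcript changed at least 2-fold, so that the motifs compared between classes below can be seen in place. All 4 read 5′ to 3′ on the strand of the gene. Capitals mark the searched motifs on either strand, which are the GC box in CLK1 (CCGCCC, the reverse complement of GGGCGG), the CCAAT box in SRSF3 and HNRNPR (also as ATTGG), the TATA box in SRSF3 (TATAAA) and the ETS site in SNRPB (CCGGAAG). CLK1 lies on the minus strand, with its window at chr2:200864659-200864908. SRSF3 lies on the plus strand, with its window at chr6:36594112-36594361. HNRNPR lies on the minus strand, with its window at chr1:23344285-23344534. SNRPB lies on the minus strand, with its window at chr20:2470790-2471039.
CLK1: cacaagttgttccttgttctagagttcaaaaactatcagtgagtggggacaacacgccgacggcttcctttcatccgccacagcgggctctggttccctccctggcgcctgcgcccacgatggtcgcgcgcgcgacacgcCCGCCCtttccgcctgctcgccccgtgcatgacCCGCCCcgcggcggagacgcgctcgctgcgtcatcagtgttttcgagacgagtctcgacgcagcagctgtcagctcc
SRSF3: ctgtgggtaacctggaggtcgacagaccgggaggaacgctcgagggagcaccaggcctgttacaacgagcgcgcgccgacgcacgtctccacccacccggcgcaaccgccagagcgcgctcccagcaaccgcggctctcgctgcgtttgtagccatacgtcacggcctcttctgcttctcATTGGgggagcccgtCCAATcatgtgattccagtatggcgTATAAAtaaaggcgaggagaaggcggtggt
HNRNPR: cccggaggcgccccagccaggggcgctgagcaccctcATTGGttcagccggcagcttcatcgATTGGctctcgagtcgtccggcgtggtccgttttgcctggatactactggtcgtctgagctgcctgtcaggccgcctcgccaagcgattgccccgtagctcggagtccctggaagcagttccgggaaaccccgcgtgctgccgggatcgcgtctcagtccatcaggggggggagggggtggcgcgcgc
SNRPB: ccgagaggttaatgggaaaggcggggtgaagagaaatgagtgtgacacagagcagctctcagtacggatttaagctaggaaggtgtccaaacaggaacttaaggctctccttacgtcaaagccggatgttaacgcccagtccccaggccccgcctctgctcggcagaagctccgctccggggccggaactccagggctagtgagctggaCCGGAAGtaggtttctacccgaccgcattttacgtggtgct

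The libraries held 17535435 to 23221077 assigned reads, and 17200 genes passed the filter on low counts and were tested. Mitochondrially encoded transcripts took 22.8% to 26.8% of counts in controls and 16.7% to 19.7% with indomethacin. Small structured RNA genes took 8.61% to 10.7% in controls and 12.9% to 16.3% with indomethacin, highest in indomethacin replicate 3, which was also the shallowest library. Markers of epithelial cells (EPCAM, KRT8, KRT18, KRT19, CDH1, CLDN4) summed to 3237 to 3729 counts scaled to a library of 1000000 (CPM) in controls and to 2907 to 3214 CPM with indomethacin. Within that sum CLDN4 and CDH1 rose (log2 1.70 and 1.51), EPCAM and KRT8 fell (-0.68 and -0.55), and KRT18 and KRT19 did not pass the test. The 5 leukocyte markers and the 3 endothelial markers each summed to under 1 CPM in all 6 libraries. The 6 fibroblast markers, of which COL1A1 and PDGFRB passed the filter, summed to 6.52 to 8.62 CPM in controls and 9.67 to 11.5 CPM with indomethacin, and COL1A2, COL3A1, DCN and LUM had at most 5 reads in any library. COL1A1 rose (log2 1.02) and PDGFRB fell (-4.52). The part of these shifts in the results was not tested, apart from the small structured and mitochondrial RNA, for which a fit without them is given with the scaling settings.

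All 54 genes passed the filter. With indomethacin 34 were lower, 4 were higher and 16 did not pass the threshold of an adjusted p below 0.05 in edgeR's quasi-likelihood test. The share that changed was 70.4%, against 61.6% of all genes tested. The share that fell was 63.0%, against 31.0% of all genes, and the 4 that rose compare with a background of 30.6%. Values of the 3 control and 3 indomethacin libraries did not overlap for 38 of the 54 genes, against 67.0% of all genes. A fall of at least 2-fold was called for 13 of the 54 (24.1%, against 15.6% of all genes), and a rise of that size for CLK1 alone (against 17.4% of all genes). The median log2 fold change, given throughout as indomethacin minus control, was -0.42 for the 54 genes and 0.04 for all genes tested. These are bulk libraries, in which fewer cells of a kind and less RNA per cell cannot be told apart, and CPM says nothing of the total RNA per cell.

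**Figure D1:**
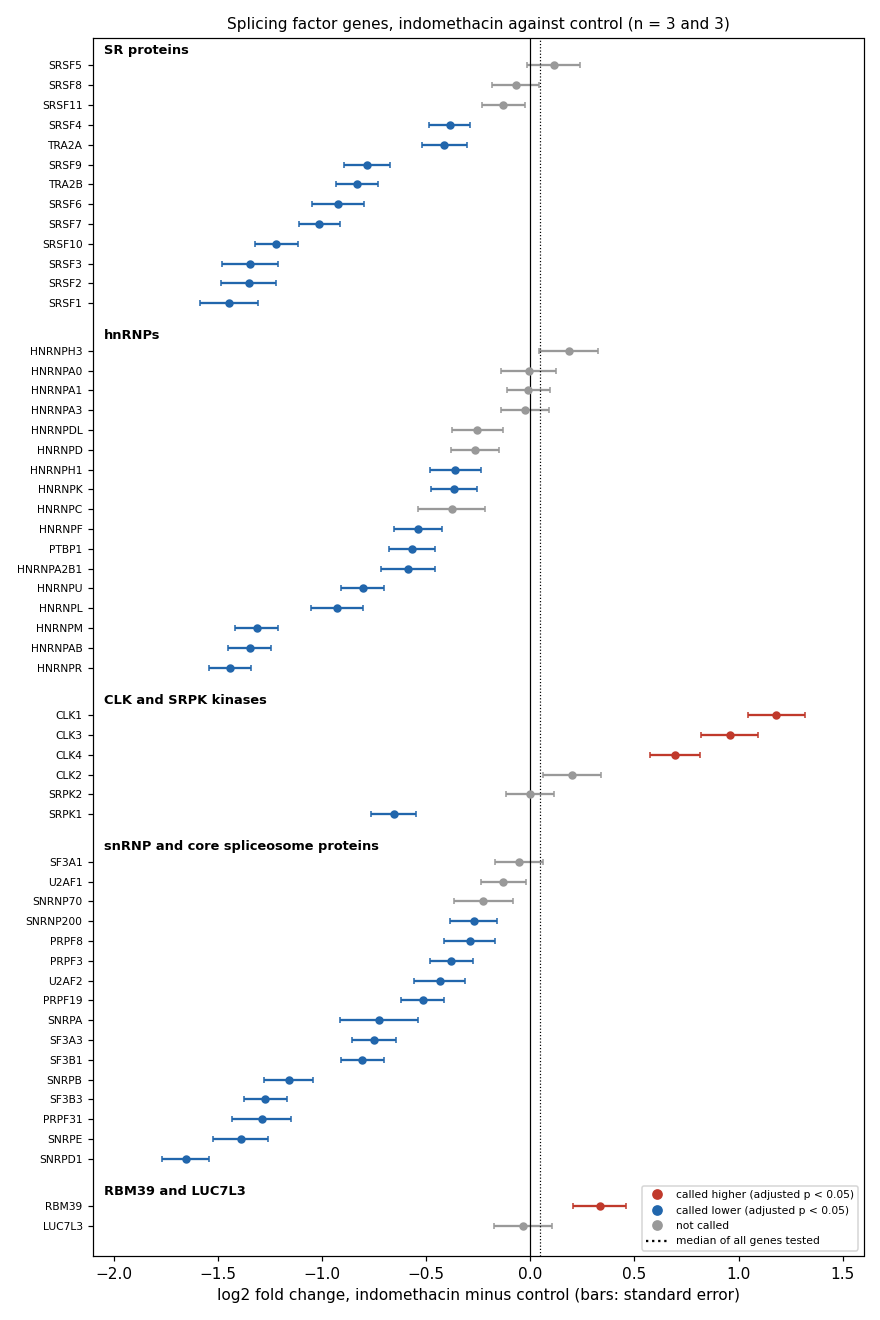
Log2 fold change of each of the 54 genes (horizontal axis, indomethacin minus control, with its standard error), grouped by class. Apart from CLK1, CLK3, CLK4 and RBM39, every called gene lies to the left of 0, from SNRNP200 at -0.27 to SNRPD1 at -1.66.

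The class sums moved apart in the same way. All 54 genes together took 0.897% ± 0.027 of counts in controls and 0.654% ± 0.014 with indomethacin (SD, n = 3 each). The SR proteins summed to 1776, 1540 and 1570 CPM in the control libraries and to 931.3, 938.6 and 941.6 CPM in the indomethacin libraries, a ratio of means of 0.576. The 3 indomethacin libraries were thus below every control and close to one another. The hnRNPs summed to 4549 ± 192 CPM in controls and 3273 ± 236 CPM with indomethacin (SD, n = 3 each), a ratio of 0.720. The snRNP and core proteins gave 2271 ± 88.1 and 1414 ± 33.9 CPM, a ratio of 0.623. The kinases summed higher with indomethacin, at 348.2 ± 29.5 against 261.4 ± 20.7 CPM, a ratio of 1.33. RBM39 and LUC7L3 had a higher mean sum with indomethacin, at 499.2 ± 15.7 against 408.6 ± 69.4 CPM, a ratio of 1.22. The groups of that sum overlapped, with 487.6 CPM in control replicate 1 and 487.3 CPM in indomethacin replicate 1.

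**Figure D2:**
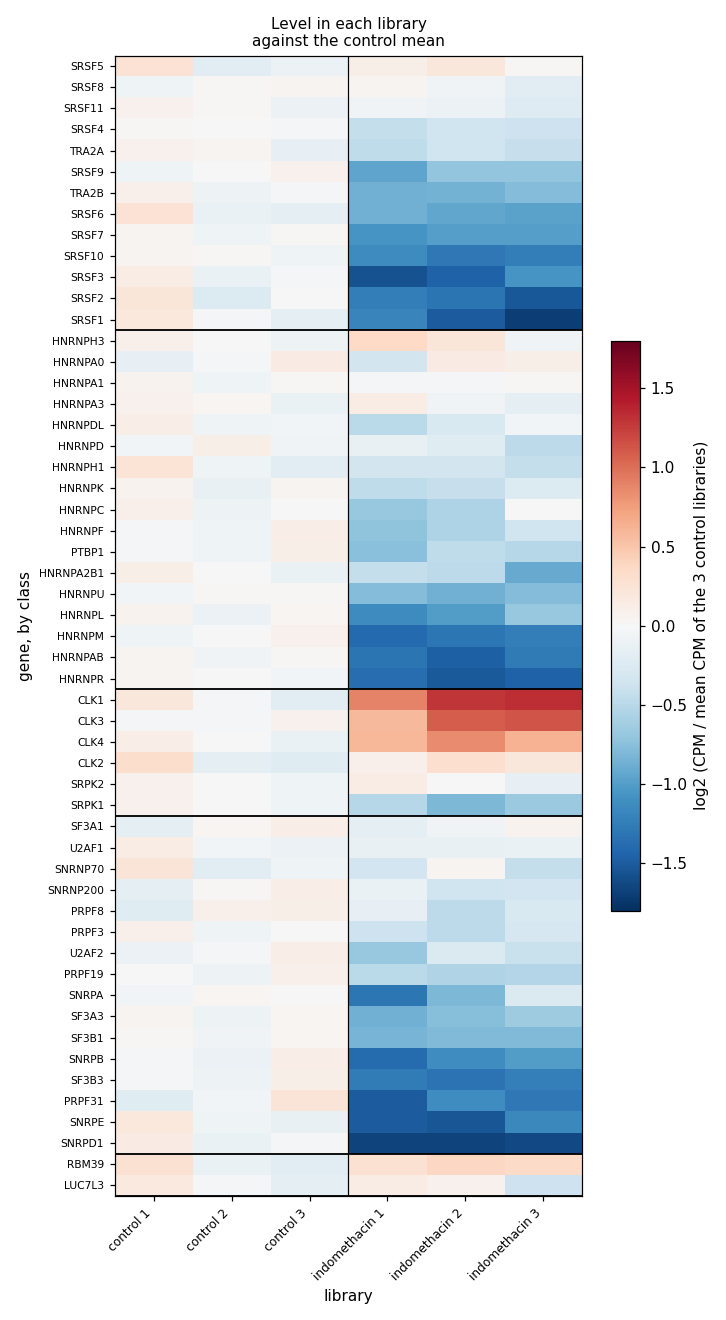
Heat map of the 54 genes (rows, by class) in the 6 libraries (columns), coloured by the log2 ratio of CPM to the mean of the 3 control libraries. SRSF1, HNRNPR and SNRPD1 are dark blue (lower) in all 3 indomethacin libraries, CLK1, CLK3 and CLK4 are red (higher), and HNRNPC is near 0 in indomethacin replicate 3 alone.

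Among the SR proteins 10 of 13 fell, none rose and 3 did not pass the test, with a median of -0.83. The share that fell was 76.9%, against 31.0% of all genes. SRSF1, the founding SR protein and a regulator of splice site choice, had 104.9, 90.5 and 81.7 CPM in controls and 40.5, 32.6 and 28.4 CPM with indomethacin. Its highest indomethacin library was thus far below its lowest control, and SRSF1 fell by 1.45 on the log2 scale (SE 0.14, edgeR adjusted p = 8.3e-07). It had the largest fall of the class. SRSF2, which marks nuclear speckles and binds exonic enhancers, had 114.5, 83.2 and 98.9 CPM in controls and 41.8, 39.8 and 34.3 CPM with indomethacin, and fell by 1.35 (SE 0.13). SRSF3, the smallest canonical SR protein, had 384.1, 323.0 and 342.2 CPM in controls and 118.5, 127.5 and 166.9 CPM with indomethacin, and fell by 1.35 (SE 0.13). Neither gene had libraries of the 2 groups that overlapped. SRSF10, which turns into a general splicing repressor when dephosphorylated, had 155.3, 152.5 and 142.4 CPM in controls and 68.8, 61.4 and 63.2 CPM with indomethacin. Its libraries were tightly grouped on both sides, and it fell by 1.22 (SE 0.10).

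SRSF7, a zinc-knuckle SR protein that also acts in RNA export, was the fifth SR protein to fall at least 2-fold, from 151.5 ± 6.84 to 75.0 ± 1.98 CPM (SD, n = 3 each). SRSF6 fell by 0.92, TRA2B by 0.83 and SRSF9 by 0.79. TRA2B and its paralogue TRA2A are SR-like proteins that bind purine-rich exonic enhancers. TRA2A fell less, by 0.41 (SE 0.11), and SRSF4 fell by 0.39 (SE 0.10). Groups did not overlap for 10 of the 13 SR proteins (76.9%, against 67.0% of all genes), the same 10 that fell. All 10 kept the call under each of the 14 other settings tried.

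Of the SR proteins that did not pass the test, SRSF5 had 183.7, 133.0 and 142.8 CPM in controls and 165.4, 175.5 and 155.2 CPM with indomethacin. Its control replicate 1 was the highest of all 6 libraries, the groups overlapped, and its log2 fold change was 0.11 (SE 0.13). SRSF8, a close relative of SRSF2, had a log2 fold change of -0.07 (SE 0.11), and SRSF11 had -0.13 (SE 0.10). The groups overlapped for both.

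Per kilobase of exon, the order of the SR proteins changed. SRSF3 led in controls with 49.1 ± 4.39 CPM per kb, followed by SRSF7 with 37.5 ± 1.69, SRSF2 with 33.2 ± 5.26 and SRSF5 with 28.6 ± 5.02 (SD, n = 3 each). SRSF2 lay within 1 SD of both its neighbours in that order, so these 3 ranks are not separated by the spread. With indomethacin SRSF5 was highest at 30.9 CPM per kb and SRSF3 next at 19.3 CPM per kb. SRSF1 went from the seventh place to the eleventh, at 16.0 CPM per kb in controls and 5.85 CPM per kb with indomethacin. SRSF4 was lowest in both groups.

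Every one of the 13 SR protein genes has at least 1 transcript annotated as a target of nonsense-mediated decay in GENCODE 29, and so have 41 of the 54 genes. Counts per gene pool such transcripts with the coding ones, so a fall here is a fall of their sum. SRSF2 shares 1065 of its 2976 exonic bases with MFSD11, and SRSF9 shares 1725 of its 3695 with GATC, both on the opposite strand. The strand setting of the counting is not given in the sources used here, so the values of SRSF2 and SRSF9 are uncertain to that extent.

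Among the hnRNPs 10 of 17 fell, none rose and 7 did not pass the test, with a median of -0.38. The share that fell was 58.8%, against 31.0% of all genes. The share that changed, also 58.8%, was below the 61.6% of all genes tested. Groups did not overlap for 11 of the 17 (64.7%, against 67.0% of all genes). HNRNPR, which binds RNA through RRM domains like its relative SYNCRIP, had 218.9, 208.9 and 204.1 CPM in controls and 81.5, 73.8 and 77.0 CPM with indomethacin. The groups were far apart relative to their spread, and HNRNPR fell by 1.44 (SE 0.10, edgeR adjusted p = 3.6e-08). HNRNPAB, an A/B-type hnRNP, had 124.8, 115.0 and 122.4 CPM in controls and 48.5, 43.7 and 50.2 CPM with indomethacin, and fell by 1.35 (SE 0.10). HNRNPM, a regulator of alternative exons that binds sequences rich in G and U, had 97.0, 101.3 and 108.3 CPM in controls and 38.9, 41.3 and 43.1 CPM with indomethacin, and fell by 1.31 (SE 0.10). None of the 3 genes had groups that overlapped.

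HNRNPL, which binds CA repeats, fell by 0.93 (SE 0.12), and HNRNPU, a nuclear scaffold protein, fell by 0.81 (SE 0.10). Smaller falls were called for HNRNPA2B1 (-0.59), PTBP1 (-0.57), HNRNPF (-0.54), HNRNPK (-0.37) and HNRNPH1 (-0.36). PTBP1 binds polypyrimidine tracts and represses exons, and its level went from 162.7 ± 10.9 to 109.6 ± 11.1 CPM (SD, n = 3 each). The calls of HNRNPK and HNRNPH1 were lost with upper-quartile scaling (edgeR adjusted p = 0.058 and 0.11). The call of HNRNPH1 was also lost without control replicate 1 (log2 fold change -0.28) or indomethacin replicate 2. HNRNPU shares 3502 of its 22512 exonic bases with COX20 on the opposite strand and carries the same uncertainty as SRSF2. So does HNRNPA2B1, which shares 1575 of its 12613 exonic bases with other genes, NFE2L3 on the opposite strand among them.

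HNRNPC, a poly-U binding protein that keeps cryptic exons out of transcripts, was near the threshold. Its 3 controls had 767.7, 679.1 and 720.5 CPM, and indomethacin replicates 1, 2 and 3 had 449.1, 489.8 and 728.5 CPM. The third indomethacin library thus lay within the control range, and the log2 fold change of -0.38 did not pass the test (SE 0.16, edgeR adjusted p = 0.052). Without that library the log2 fold change was -0.63 (edgeR adjusted p = 0.00027). With all 6 libraries HNRNPC was called lower by DESeq2 (adjusted p = 0.0284), by limma-voom (adjusted p = 0.0264), and by edgeR with RLE scaling, with library sizes without mitochondrial and small structured RNA, with no filter or with a replicate block (edgeR adjusted p = 0.0446, 0.041, 0.000115 and 0.0177). It was also called without control replicate 2 (edgeR adjusted p = 0.0372). HNRNPDL was also nearest to control in indomethacin replicate 3, with 158.2, 183.4 and 214.3 CPM against 209.3 to 241.3 CPM in controls, and passed the test without it (-0.38, edgeR adjusted p = 0.011) or with no filter on low counts (edgeR adjusted p = 0.00821). HNRNPD, a binder of AU-rich elements, did not overlap between groups but did not pass the test (-0.26, edgeR adjusted p = 0.0599). It passed with a replicate block (edgeR adjusted p = 0.04996), with no filter (edgeR adjusted p = 0.0147), and without control replicate 1 (edgeR adjusted p = 0.0433) or indomethacin replicate 1 (edgeR adjusted p = 0.0196).

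HNRNPA1, the best-studied exon repressor of the family, had 487.9, 442.6 and 472.3 CPM in controls and 455.7, 460.5 and 476.2 CPM with indomethacin. Its libraries were fully interleaved and its log2 fold change was -0.01 (SE 0.10), beside A-type relatives at -0.01 (HNRNPA0) and -0.03 (HNRNPA3). HNRNPA1 has 76 annotated copies in the count tables, whose counts equal 50.2% of its own, and for HNRNPA3 that share is 13.8%. How the authors' counting treated reads that match several copies is not given in the sources used here, so both values are uncertain. HNRNPH3 had a log2 fold change of 0.18 (SE 0.14). Per kilobase, HNRNPK (122 ± 8.93 CPM per kb in controls), HNRNPC (98.8 ± 6.07) and HNRNPF (96.2 ± 6.93) led the class, and the last 2 of these lay within 1 SD of each other. HNRNPAB went from the fifth place to the seventh, at 57.0 and 22.4 CPM per kb.

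Among the kinases of SR proteins 3 of 6 rose, 1 fell and 2 did not pass the test, with a median of 0.45. The share that rose was 50%, against 30.6% of all genes, and 66.7% changed, against 61.6%. CLK1, the most studied of the dual-specificity CLK kinases, had 48.1, 40.8 and 36.1 CPM in controls and 77.7, 101.5 and 104.4 CPM with indomethacin. Its lowest indomethacin library was well above its highest control, and CLK1 rose 2.27-fold (log2 1.18, SE 0.14, edgeR adjusted p = 5.3e-06). CLK3 had 43.9, 44.0 and 47.4 CPM in controls and 67.8, 96.0 and 99.0 CPM with indomethacin, a rise of 0.96 on the log2 scale (SE 0.14). CLK4 had 25.5, 23.4 and 21.8 CPM in controls and 35.6, 42.4 and 36.4 CPM with indomethacin, a rise of 0.69 (SE 0.12). For CLK1 and CLK3 indomethacin replicate 1 was the lowest of the treated libraries, yet it still lay above all controls.

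CLK2 had 50.2, 36.0 and 34.8 CPM in controls and 43.1, 49.6 and 46.3 CPM with indomethacin. Its control replicate 1 was the highest of the 6 libraries, and its log2 fold change of 0.20 (SE 0.14) did not pass the test. Without that library it did (0.33, edgeR adjusted p = 0.036). SRPK1, the main cytoplasmic SR protein kinase in many cell types, had 83.9, 78.6 and 75.3 CPM in controls and 55.6, 45.2 and 49.99 CPM with indomethacin. The groups did not overlap, and SRPK1 fell by 0.66 (SE 0.11). Its paralogue SRPK2 had a log2 fold change of -0.0027 (SE 0.11), with 31.5 ± 1.63 and 31.4 ± 3.05 CPM (SD, n = 3 each).

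Set against their substrates, transcripts of the 4 CLK genes summed to 9.45, 9.37 and 8.92 per 100 SR protein CPM in controls and to 24.1, 30.8 and 30.4 with indomethacin. The ratio of the CLK sum to the SRPK sum was 1.43, 1.31 and 1.33 in controls and 2.49, 3.78 and 3.65 with indomethacin. Both ratios separated the groups without overlap, and both are ratios within a library, so they do not depend on how libraries are scaled to one another. Per kilobase, SRPK1 led the kinases in controls at 11.8 ± 0.65 CPM per kb, with CLK2 within 1 SD at 11 ± 2.34. CLK1 led with indomethacin at 18.3 CPM per kb, up from 8.06 ± 1.17 in controls. CLK3, whose exonic length is the largest of the 6, was the lowest per kilobase in both groups. Without division by length it had 45.1 CPM in controls and 87.6 CPM with indomethacin. Those levels were above CLK4 and SRPK2 in both groups. Exons of CLK3 (701 of 19697 bases), SRPK1 (1879 of 6692 bases) and SRPK2 (at least 136 of 6366 bases) overlap genes on the opposite strand. Those of CLK4 overlap a gene on the same strand (161 of 7922 bases), while CLK1 and CLK2 have no exon overlap.

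**Figure D3:**
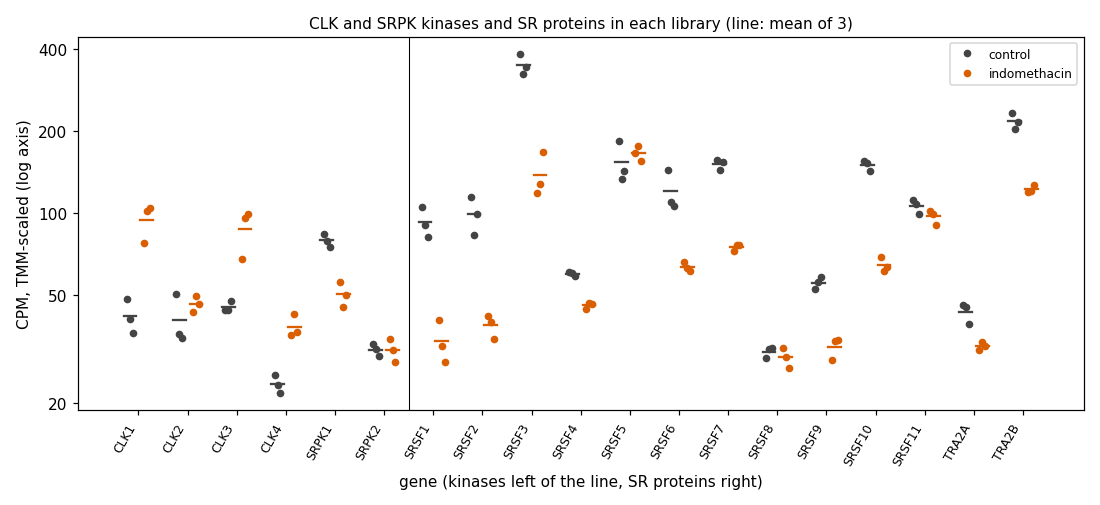
CPM of each kinase (left of the line) and SR protein (right) on a log axis, with a point per library and a short line at the mean of 3. CLK1, CLK3 and CLK4 lie higher with indomethacin, whereas SRPK1 and 10 of the 13 SR proteins lie lower without overlap.

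Among the snRNP and core spliceosome proteins 13 of 16 fell, none rose and 3 did not pass the test, with a median of -0.62. The share that fell was 81.2%, against 31.0% of all genes. SNRPD1, SNRPE and SNRPB are Sm proteins, which form the ring around the snRNAs of most snRNPs, and all 3 fell at least 2-fold. SNRPD1 had 72.4, 60.4 and 63.7 CPM in controls and 20.6, 20.5 and 21.2 CPM with indomethacin. The treated libraries differed from one another by less than 1 CPM, and SNRPD1 fell by 1.66 (SE 0.11, edgeR adjusted p = 2.5e-08), the largest change of the 54 genes in either direction. SNRPE had 79.3, 66.0 and 63.0 CPM in controls and 24.5, 23.9 and 31.1 CPM with indomethacin, and fell by 1.39 (SE 0.13). SNRPB had 214.3, 203.8 and 237.2 CPM in controls and 84.0, 100.7 and 108.3 CPM with indomethacin, and fell by 1.162 (SE 0.12). SNRPB, with 1278 exonic bases, was the highest of all 54 genes per kilobase in controls, at 171 ± 13.4 CPM per kb. Pseudogenes of SNRPE held counts equal to 11.2% of its own, so its value is uncertain to that extent.

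Of the U2 snRNP proteins, SF3B3 had 255.6, 242.5 and 277.8 CPM in controls and 108.4, 102.5 and 110.1 CPM with indomethacin, a fall of 1.27 (SE 0.10). SF3B1, which clamps the branch point helix and is often mutated in myeloid neoplasms, had 563.5, 527.9 and 568.1 CPM in controls and 308.9, 319.8 and 320.0 CPM with indomethacin, a fall of 0.81 (SE 0.10). Both genes had groups far apart relative to their spread. SF3A3 fell by 0.75 (SE 0.10), while SF3A1, its partner in the SF3A complex, had -0.05 (SE 0.11) with overlapping groups. U2AF2, the U2AF subunit that binds the polypyrimidine tract, fell by 0.44 (SE 0.12).

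U2AF1, the subunit that reads the AG of the 3′ splice site, had a log2 fold change of -0.13 (SE 0.11) that did not pass the test. It shares its sequence with a near-copy in the tables, which held 4732 counts over the 6 libraries beside 4878 for U2AF1, and the split of reads between them makes its level uncertain. The near-copy had a log2 fold change of -0.25 (SE 0.14).

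For U1, SNRPA had 67.4, 71.6 and 70.1 CPM in controls and 28.3, 39.9 and 58.4 CPM with indomethacin. The treated libraries were spread widely, with indomethacin replicate 3 nearest to control, and SNRPA fell by 0.73 (SE 0.19). Leaving out single libraries gave log2 fold changes from -0.53 (without indomethacin replicate 1) to -1.04 (without indomethacin replicate 3), and the call held in each. SNRNP70 had 172.1, 129.1 and 138.9 CPM in controls and 115.5, 151.5 and 108.9 CPM with indomethacin, so the groups overlapped and the log2 fold change of -0.23 (SE 0.14) did not pass the test. It did pass without indomethacin replicate 2 (-0.39, edgeR adjusted p = 0.037) and with no filter on low counts (edgeR adjusted p = 0.0195).

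In the tri-snRNP, PRPF31, which bridges U4/U6 and U5, had 41.3, 46.2 and 56.3 CPM in controls and 17.0, 22.1 and 19.7 CPM with indomethacin. Every treated library was below every control, and PRPF31 fell by 1.29 (SE 0.14). PRPF3, a U4/U6 protein, fell by 0.38 (SE 0.10), and PRPF19, the ubiquitin ligase of the Prp19 complex, fell by 0.52 (SE 0.10). The U5 proteins PRPF8, the scaffold of the catalytic core, and SNRNP200, the helicase that unwinds U4/U6, were at the threshold. PRPF8 had 180.8, 222.3 and 225.0 CPM in controls and 189.6, 151.1 and 172.5 CPM with indomethacin (-0.29, SE 0.12, edgeR adjusted p = 0.04997), and its groups overlapped. SNRNP200 had -0.27 (SE 0.11, edgeR adjusted p = 0.0496), also with overlap. Both calls were lost with upper-quartile scaling, with a minimum of 1 CPM in 3 libraries, with a replicate block, and without control replicate 2 or 3 or indomethacin replicate 2 or 3. PRPF31 shares 837 of its 2673 exonic bases with other genes, PRPF31-AS1 among them.

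RBM39, a relative of U2AF2 and the target of aryl sulfonamide degraders, had 426.4, 327.3 and 309.2 CPM in controls and 427.9, 459.6 and 451.5 CPM with indomethacin. Its control replicate 1 lay just under the lowest indomethacin library, and RBM39 rose by 0.33 (SE 0.13, edgeR adjusted p = 0.035). That call was lost without control replicate 2 (edgeR adjusted p = 0.17) or 3 (edgeR adjusted p = 0.22), and without indomethacin replicate 2 (edgeR adjusted p = 0.11) or 3 (edgeR adjusted p = 0.057), and with no filter on low counts (edgeR adjusted p = 0.13). LUC7L3, a U1-associated factor, had a log2 fold change of -0.03 (SE 0.14) with overlapping groups.

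The wider splicing machinery was described with 10 further lists, of which 219 genes were tested. Of these 106 fell and 44 rose, with a median of -0.27, against the background of 31.0% lower and 30.6% higher given above. Among other U1, U2 and Sm proteins 12 of 22 fell and 4 rose. The Sm proteins SNRPD3 (-2.60, SE 0.19) and SNRPF (-1.69, SE 0.15) and the U1 protein SNRPC (-1.39, SE 0.13) fell beside SNRPD1, whereas SF3A2, the third subunit of SF3A, rose from 11.7 ± 0.86 to 30.0 ± 5.39 CPM (SD, n = 3 each; log2 1.36, SE 0.15). The 3 SF3A subunits thus lay at -0.75, -0.05 and 1.36. Other tri-snRNP and LSm proteins had 17 of 22 lower and 2 higher, with LSM4 (-1.39, SE 0.11), LSM3 (-1.19, SE 0.12) and SNRNP40 (-1.18, SE 0.11) leading.

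Of the Prp19 complex and catalytic step factors 13 of 31 fell and 7 rose. PPIL1, a spliceosomal prolyl isomerase, fell by 1.84 (SE 0.14), and the second-step factor SLU7 rose by 0.66 (SE 0.11). Minor spliceosome proteins, which serve U12-type introns, had 6 of 13 lower and 1 higher, and SNRNP25 fell from 20.3 ± 2.30 to 4.84 ± 1.09 CPM (SD, n = 3 each). SR-related proteins were mixed, with 11 of 30 lower and 8 higher. SRRM2, a large scaffold of nuclear speckles, rose by 1.01 (SE 0.14) and RSRP1 by 1.06 (SE 0.11), whereas BCLAF1 fell by 0.93 (SE 0.10) and THRAP3 by 0.88 (SE 0.11). Other hnRNPs and related proteins had 13 of 23 lower and 5 higher, and HNRNPH2 fell by 1.24 (SE 0.11) where its paralogue HNRNPH1 fell by 0.36.

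Regulators of alternative splicing had 10 of 22 lower and 3 higher. The muscleblind paralogues moved apart. MBNL3 fell from 94.3 ± 8.41 to 11.2 ± 1.52 CPM and MBNL1 from 138.3 ± 5.19 to 52.5 ± 6.07 CPM, whereas MBNL2 rose from 87.9 ± 15.04 to 234.2 ± 18.8 CPM (SD, n = 3 each). ESRP1, a splicing regulator of epithelial cells, rose from 152.8 ± 6.72 to 303.8 ± 8.36 CPM (SD, n = 3 each). Of the exon junction complex and nonsense-mediated decay genes 8 of 19 fell and 4 rose. RBM8A fell by 1.04 (SE 0.11), whereas the decay kinase SMG1 rose by 0.91 (SE 0.13).

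Genes of snRNP assembly and transport had 11 of 22 lower and 5 higher. WDR77, a subunit of the methylosome that modifies Sm proteins, fell by 1.64 (SE 0.13), and the SMN complex members GEMIN4 and GEMIN5 fell by 1.55 (SE 0.13) and 1.12 (SE 0.10). TNPO1, XPO1 and TGS1, which act in nuclear transport and cap modification, rose by 0.46, 0.40 and 0.54. Other kinases and phosphatases of SR proteins had 5 of 15 lower and 5 higher. The kinase CDK13 rose by 1.21 (SE 0.10), TOP1, a topoisomerase that can also phosphorylate SR proteins, by 0.68 (SE 0.11) and DYRK1A by 0.36 (SE 0.10). The catalytic subunits PPP1CC and PPP1CA of protein phosphatase 1 fell by 1.08 (SE 0.12) and 0.86 (SE 0.10).

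**Figure D4:**
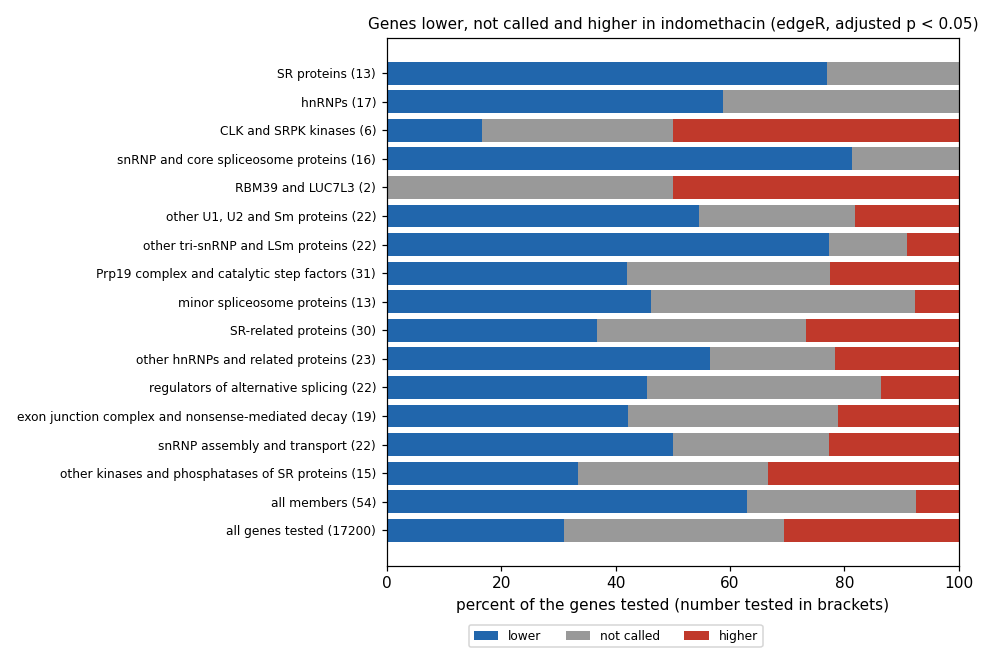
Percent of the tested genes in each list (horizontal axis) that were lower, not called and higher with indomethacin, beside all genes tested. The SR proteins (76.9% lower) and the snRNP and core proteins (81.2% lower) have no gene called higher, and all genes tested have 31.0% lower.

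The snRNAs that these proteins bind did not fall in the counts. Of 22 spliceosomal snRNA genes tested 12 were higher (54.5%, against 30.6% of all genes) and none was lower (against 31.0%). The share that changed, 54.5%, was below the 61.6% of all genes tested. The snRNA genes summed to 9689, 10630 and 11480 CPM in controls and 11530, 14300 and 19470 CPM with indomethacin. The highest control and the lowest indomethacin library lay side by side, and indomethacin replicate 3 was highest, as it was for the share of small structured RNA. The part of that share in the rise was not tested. U1 genes held most of these counts, RNU1-1 going from 3023, 3406 and 3649 CPM to 3684, 4577 and 6171 CPM. These genes are near-identical copies of one another, so single snRNA values are uncertain.

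For the proteins, the share of small structured RNA and of mitochondrial transcripts moved with the treatment as well. With those genes left out of the fit and of the library sizes, 35 of the 54 genes fell and 4 rose, beside 34 and 4 with them. Upper-quartile scaling, which raised the median of all genes from 0.04 to 0.16, gave 30 lower and 4 higher.

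The 47 promoters were described by 7 motifs searched on both strands, none of which contains another, beside the 35116 RefSeq promoters of the same length. A CCAAT box (CCAAT) was present in 68.8% of 16 hnRNP promoters, in 18.2% of 11 SR protein promoters, in 30.8% of 13 snRNP and core promoters and in 32.0% of all promoters. HNRNPR, shown above, had a pair of them. An ETS site (CCGGAAG), as in SNRPB, was present in 46.2% of the snRNP and core promoters and in 8.52% of all. The windows of SNRPE, U2AF2 and SNRNP200, which lie almost or wholly within their genes in the count files, are counted in that 46.2%. An E-box (CACGTG) was present in 31.2% of hnRNP promoters and in 33.3% of the 6 kinase promoters. It was present in 7.69% of snRNP and core promoters, in none of the SR protein promoters and in 6.34% of all. The GC box (GGGCGG) was present in 75.0% of hnRNP, 66.7% of kinase, 53.8% of snRNP and core, 36.4% of SR protein and 42.6% of all promoters. The TATA box (TATAAA) was present in 10.6% of the 47 and 10.7% of all.

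The cyclic AMP response element (TGACGTCA) and an amino acid response element (TGATGCAAT) were found in none of the 47 windows. Median GC content was 65.2% in the 47 promoters and 58.0% in all, which bears on how often GC-rich motifs occur. Split by call, a CCAAT box was present in 41.4% of the 29 promoters of genes that fell and 40.0% of the 15 of genes that did not pass the test. For the ETS site these shares were 24.1% and 20%, and for the E-box 6.90% and 33.3%. The motifs describe classes of genes here, and a match is not a measured binding site.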

How the data were processed

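Ribosome-depleted total RNA was sequenced with a stranded kit, per the labels' protocols. Gene counts for 6 libraries were deposited by the authors as unnormalized counts. Per the submitters' processing notes, bcl2fastq, FastQC 0.11.7, cutadapt 1.16, HISAT2 2.1.0, SAMtools, featureCounts and DESeq2 were used with hg38, in roles that the notes as given here do not state. The strand setting of the counting and the annotation release are not given in the sources used here. Each table had 60607 lines, of which 3 broken ones, holding 1 gene, were left out. Symbols were matched for 60462 of 60604 genes, and GENCODE 29 supplied transcript classes.

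Counts were tested with edgeR 4.0.16 in R 4.3.3 (filterByExpr, TMM factors, quasi-likelihood test, group as the only term, 3 against 3), with Benjamini-Hochberg adjustment across 17200 genes and a threshold of 0.05. The fit was tested on simulated data in which few genes changed, up or down at random, with the same dispersion for every gene. That setting differs from these data, where 61.6% of genes were called, so it cannot show how well scaling or calls hold here. CPM used TMM-scaled library sizes, summed before scaling over the 17200 genes tested. Over all genes read, the libraries held 17535435 to 23221077 counts. Against those totals, 3 counts, the limit that a count of 0 allows, came to 0.129 to 0.171 CPM before scaling. CPM per kb divides by the exonic length in the files, which merges all annotated exons of a gene. Orders per kilobase therefore depend on that annotation as well as on the counts. Other settings were DESeq2 1.42.0, limma-voom (limma 3.58.1), RLE and upper-quartile scaling, other filters, a replicate block, and leaving out each library. Each of the 54 genes was named, and in each further list up to 3 genes higher and 3 lower, with a mean of at least 5 CPM, could be named, smallest adjusted p first. The genes and lists were chosen with earlier results of these data known.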

Additional observations from a re-analysis of the deposited data

How the results depend on the processing

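Of the 38 changed genes 33 kept direction and call under all 14 other settings, and of the 16 not called 3 kept both. Over these settings 30 to 38 of the 54 fell and 3 to 5 rose. Without a filter on low counts, which moved the median of the same genes to -0.06, 38 fell and 3 rose, and RBM39 and LUC7L3 gave 0 changed and 0 higher. Leaving out single libraries gave 0 to 1 changed and 0 to 1 higher for that pair. Exons of 9 of the 17 hnRNPs and 4 of the 6 kinases overlap another gene. Among genes with no exon overlap 4 hnRNPs changed and 4 were lower, and of the kinases 1 changed, 1 was higher and 0 were lower. These counts are smaller since fewer genes remained. Replicate numbers are shared by the groups, and same-numbered libraries had correlations of 0.02, 0.01 and 0.13 in their deviations. Pairs with different numbers had -0.143 to 0.131. These values cannot tell whether same-numbered libraries share a culture or batch. With a replicate block 10601 genes changed, and 34 of the 54 fell and 4 rose, with 10 SR proteins, 12 hnRNPs and 11 core proteins lower. Genes near 0 changed sign. Upper-quartile scaling moved the median of all genes from 0.04 to 0.16, and with it the log2 fold changes were 0.049 (SRSF8), 0.108 (HNRNPA0), 0.106 (HNRNPA1), 0.0915 (HNRNPA3), 0.115 (SRPK2), 0.0631 (SF3A1) and 0.0824 (LUC7L3). With at least 1 CPM in 3 libraries, where the cause was not tested, they were 0.0382 (HNRNPA0), 0.0366 (HNRNPA1), 0.0215 (HNRNPA3), 0.045 (SRPK2) and 0.0127 (LUC7L3). Leaving out single libraries gave -0.0202 to 0.208 for SRSF5, -0.13 to 0.106 for HNRNPA0, -0.133 to 0.0287 for HNRNPA3, -0.0977 to 0.0547 for SRPK2 and -0.147 to 0.0979 for LUC7L3. With 3 libraries a group, precision is limited by the spread between libraries.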
